A study of Homo sapiens with 16 samples.

Results

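The plasminogen activator system was described here through 5 genes, PLAU, PLAT, PLAUR, SERPINE2 and SERPINB2, chosen by name out of the 22892 genes kept in a HiSeq table and the 25606 kept in a NextSeq table, and found in both. The libraries came from HT1080, an established human fibrosarcoma cell line, carrying an XIST cDNA transgene that doxycycline (DOX) switches on by relieving a Tet repressor, which all the lines make constitutively. XIST is the non-coding RNA that coats and silences the chromosome it is transcribed from. The transgene was integrated at 1 of 3 sites, on 8p in an intron of AGPAT5, on 1p in an intron of MACF1, or on 12q in an intron of FAM222A (listed by its older symbol, C12orf34). The HiSeq table held 1 library of 8p XIST with No DOX, 2 of 8p XIST with 5 days of DOX, and 1 each of 1p XIST, 1p empty vector and 12q XIST, all with 5 days of DOX. The NextSeq table held 1 library each of 1p XIST and 12q XIST with No DOX and with 5 days of DOX. The lines were single-cell clones. The 8p and 1p lines came from one Tet repressor subclone of HT1080 and the 12q line from another, so site, clone and parental subclone cannot be told apart. By the study's methods the 2 DOX libraries of 8p are from 2 clones of that site and the No DOX library is from 1 clone, so the spread of the 8p DOX replicates is a spread between clones. No group had a second library in the NextSeq table, and the 1p libraries carry different names with No DOX and with DOX. The names of the 12q libraries also differ between HiSeq and NextSeq. Whether the XIST libraries of 1p, or those of 12q, came from a single clone is thus not known. Nothing says that the NextSeq libraries came from separate cultures, so p-values from that table measure only the spread between these libraries, which may be technical.

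Plasminogen is a circulating zymogen that becomes the broad-acting protease plasmin when it is cut by one of the plasminogen activators, urokinase (PLAU) or tissue-type plasminogen activator (PLAT). PLAUR is the receptor that holds urokinase at the cell surface, which focuses plasmin on fibrin and extracellular matrix at sites of invasion. The activators are held in check by serpins, among them SERPINE2 (protease nexin-1, which also inhibits thrombin) and SERPINB2 (plasminogen activator inhibitor type 2). HT1080 cells have long been used to study urokinase and its receptor.

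In hg18 coordinates, PLAU lies on chromosome 10 from 75340868 to 75347264, PLAUR on chromosome 19 from 48842087 to 48866338, SERPINE2 on chromosome 2 from 224548009 to 224612280, and SERPINB2 on chromosome 18 from 59705919 to 59722104. Among the listed genes, 1 overlapped these spans, C10orf55 within PLAU, at 0.321 to 0.536 FPKM in the HiSeq libraries. Whether strand was used to split their reads is not given in the sources used here. The 250 bases before the start site are shown for 4 of the genes, since 3 of them moved together with DOX at 8p (below) while SERPINB2 was below 1 FPKM. The sequences are from RefSeq on GRCh38.p14, 5′ to 3′ on the strand of the gene, at chr10:73910882-73911131 for PLAU (plus strand), chr19:43670170-43670419 for PLAUR (minus strand), chr2:224038641-224038890 for SERPINE2 (minus strand) and chr18:63887455-63887704 for SERPINB2 (plus strand), and the capitals mark matches to the motifs below.
PLAU: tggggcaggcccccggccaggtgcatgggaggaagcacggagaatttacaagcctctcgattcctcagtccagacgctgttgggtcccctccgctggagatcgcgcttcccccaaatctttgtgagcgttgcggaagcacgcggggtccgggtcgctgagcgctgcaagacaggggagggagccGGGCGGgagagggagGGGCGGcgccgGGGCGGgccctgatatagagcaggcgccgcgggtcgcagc
PLAUR: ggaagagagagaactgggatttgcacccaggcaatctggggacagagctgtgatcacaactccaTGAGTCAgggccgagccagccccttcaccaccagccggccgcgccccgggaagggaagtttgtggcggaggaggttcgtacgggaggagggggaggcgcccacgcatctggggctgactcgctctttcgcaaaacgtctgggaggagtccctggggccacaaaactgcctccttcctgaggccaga
SERPINE2: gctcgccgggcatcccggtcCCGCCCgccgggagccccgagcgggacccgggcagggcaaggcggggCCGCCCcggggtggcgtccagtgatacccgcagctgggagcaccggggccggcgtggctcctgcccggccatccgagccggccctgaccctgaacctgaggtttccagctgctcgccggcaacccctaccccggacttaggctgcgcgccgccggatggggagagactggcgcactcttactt
SERPINB2: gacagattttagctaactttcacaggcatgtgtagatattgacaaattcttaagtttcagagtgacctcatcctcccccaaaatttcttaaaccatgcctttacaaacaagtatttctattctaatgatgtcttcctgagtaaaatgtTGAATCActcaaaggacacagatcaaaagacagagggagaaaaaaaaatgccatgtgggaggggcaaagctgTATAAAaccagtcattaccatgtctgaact
Both strands were searched for 4 motifs, none of which can hold another, and their shares are of the 35116 promoter windows of this length in RefSeq. They were the AP-1 site (TGANTCA, held by 6.57% of the windows), the GC box (GGGCGG, 42.6%), the CCAAT box (CCAAT, 32.0%) and the TATA box (TATAAA, 10.7%). PLAU held 3 GC boxes, SERPINE2 held 2 on the opposite strand, PLAUR held 1 AP-1 site 186 bases before its start, and SERPINB2 held 1 AP-1 site 102 bases and 1 TATA box 30 bases before its start. PLAU and SERPINE2 each had 2 windows in RefSeq, and only 1 was searched. It was the one whose gene length came closest to the hg18 span, off by 34 bases for PLAU and 676 for SERPINE2. In the windows searched, no motif of the 4 was held by all 3 of PLAU, PLAUR and SERPINE2. PLAT rose with them at 8p, but its promoter was not searched. Such matches describe letters only and were not tested for binding.

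Levels are in FPKM, a fragment count scaled to transcript length and to the size of the library, and sequencing depth is unknown. Genes at 1 FPKM or more numbered 10975 to 11240 in the HiSeq libraries and 11116 to 11399 in the NextSeq ones. XIST stood at 3.38 FPKM in 8p with No DOX and at 99.0 and 89.7 with DOX, at 0.0705 in the empty vector clone, and between 22.0 and 67.6 in the other DOX libraries of both tables, against 4.17 (1p) and 3.75 (12q) with No DOX. Of 8 mesenchymal markers, 7 were at 1 FPKM or more in every library, and THY1 was at 0.0814 or lower. The haematopoietic marker PTPRC was listed at 0 throughout, while CD68 was between 73.7 and 125 FPKM. The endothelial cadherin CDH5 was between 5.44 and 7.06 in the 12q libraries and at 0.835 or lower in all the others. The other endothelial markers, PECAM1 and VWF, were at or below 0.958 and 0.394 FPKM in every library. PECAM1 was lower in 12q than in 1p XIST with DOX on HiSeq (0.436 against 0.958). It was also lower on NextSeq, with No DOX (0.628 against 0.767) and with DOX (0.534 against 0.796), while VWF was higher in 12q in these pairs. One library, NextSeq 12q with DOX, stood apart. It held EPCAM at 2.38, CDH1 at 1.38, KRT19 at 0.964 and ESRP1 at 0.719 FPKM, all at 0.0906 or lower elsewhere. CLDN4 was lower there than in 12q with No DOX (2.06 against 2.96 FPKM), and was at 1.05 and 1.04 in the 1p NextSeq libraries. The 5 epithelial markers of the 12q library with DOX summed to 7.50 FPKM against 1.07 to 2.96 in the other NextSeq libraries. This 12q library also had 67 genes at 1 FPKM or more that were below 0.1 in the other libraries of its table, where those libraries had 13 to 17. The part of these cells or transcripts in the results below was not tested, and the 12q against 1p differences of the genes named below are also given from the No DOX libraries alone, which leaves this library out.

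PLAU, PLAUR, PLAT and SERPINE2 were above 5 FPKM in every library and SERPINB2 was below 1. Urokinase was the most abundant of them per length in every library. Its level in the HiSeq table was 96.4 FPKM in 8p with No DOX, 148 and 138 in the 8p DOX replicates, 238 in 1p XIST, 99.2 in the 1p empty vector clone and 184 in 12q XIST. The lowest of these, 8p with No DOX and the vector clone, lay closer together than the SD of the 8p DOX replicates (143 ± 6.90 FPKM, n = 2), and each other step in the order was larger than that SD. In the NextSeq table PLAU was at 361 FPKM in 1p with No DOX, 297 in 1p with DOX, 295 in 12q with No DOX and 289 in 12q with DOX. The spread there was 1.25-fold from lowest to highest, against 2.47-fold in the HiSeq table.

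The receptor was the steadiest of the transcribed genes in the HiSeq table. PLAUR was at 69.3 FPKM in 8p with No DOX, 99.2 and 99.1 in the 8p DOX replicates, 81.3 in 1p XIST, 89.2 in the vector clone and 82.1 in 12q XIST. In the NextSeq table it was at 129 (1p No DOX), 105 (1p DOX), 106 (12q No DOX) and 100.2 FPKM (12q DOX). Its highest value was 1.43 times the lowest in the HiSeq table and 1.29 times in the NextSeq table. The replicates of 8p with DOX (99.2 ± 0.0311, n = 2) lay above the other 4 libraries and the 1p XIST and 12q XIST libraries lay next to each other.

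Tissue-type plasminogen activator had high and low clones. PLAT was at 20.4 FPKM in 8p with No DOX, 31.8 and 29.7 in the 8p DOX replicates and 33.9 in 1p XIST, but at 5.37 in the 1p vector clone and 6.97 in 12q XIST. In the NextSeq table it was at 51.0 (No DOX) and 48.6 (DOX) in 1p and at 9.31 (No DOX) and 8.09 (DOX) in 12q. The highest value was 6.31 times the lowest in each. The low libraries reached at most 6.97 (HiSeq) and 9.31 FPKM (NextSeq) and the others at least 20.4 and 48.6, and the low vector clone shared its integration site with the 1p XIST clone.

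SERPINE2 ordered the clones differently. It was at 38.3 FPKM in 8p with No DOX and at 48.5 and 46.8 in the 8p DOX replicates (mean 47.6 ± 1.21, n = 2), at 22.5 in 12q XIST, 9.27 in 1p XIST and 5.63 in the vector clone, with each step in the order larger than that SD. Among the NextSeq libraries 12q was again above 1p, at 26.8 (No DOX) and 31.3 (DOX) against 15.5 in both 1p libraries. SERPINB2 reached no more than 0.385 FPKM in any library. It was at 0.245 in 8p with No DOX, 0.385 and 0.283 in the 8p DOX replicates, 0.122 in 1p XIST, 0.0333 in the vector clone and 0.0171 in 12q XIST, and between 0.0260 and 0.0857 in the NextSeq table. It failed the filter of a mean of 1 FPKM in every comparison, so all tests below cover 4 of the 5 genes.

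**Figure D1:**
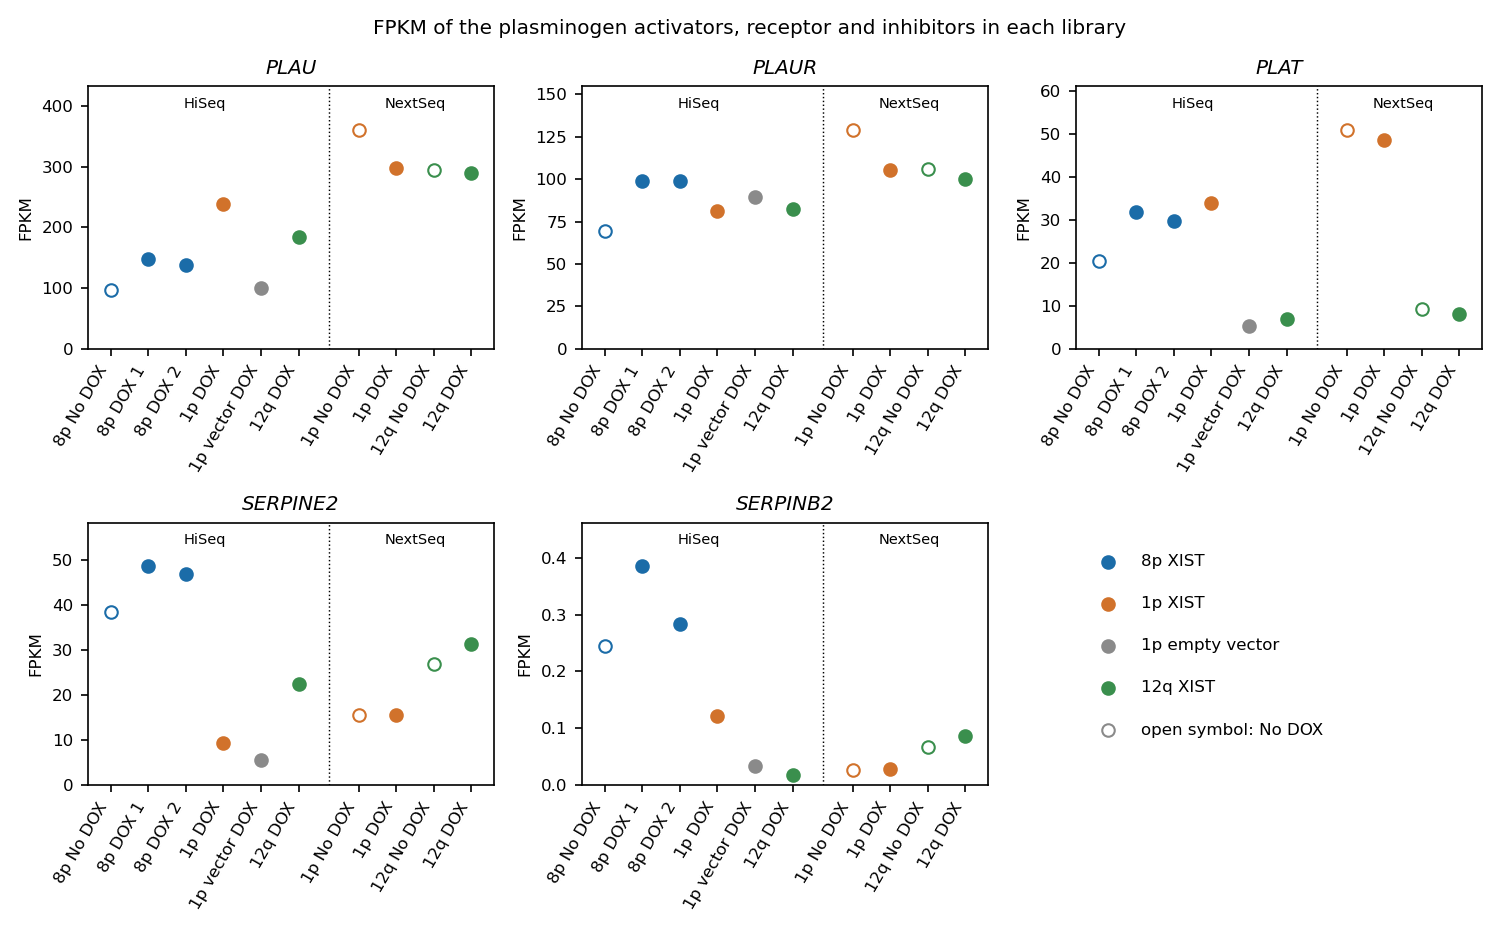
FPKM (vertical axis, from 0, a separate scale for each gene) of PLAU, PLAUR, PLAT, SERPINE2 and SERPINB2 in the 6 HiSeq and 4 NextSeq libraries (horizontal axis), 1 point per library and open symbols for No DOX. PLAT was at 5.37 to 9.31 FPKM in the vector and 12q libraries and at 20.4 or more in the others, SERPINE2 was highest in 8p, and SERPINB2 stayed at or below 0.385.

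The first comparison asked whether the genes changed with 5 days of DOX at 8p, the site on the arm of PLAT. All 4 transcribed genes were higher with DOX in both replicates. In bulk RNA a change in the share of cells that transcribe a gene cannot be told apart from a change in RNA per cell. PLAU rose by 48.4% (53.5% and 43.4% in the replicates), PLAUR by 43.1% (43.1% and 43.0%), PLAT by 51.0% (56.1% and 45.8%) and SERPINE2 by 24.3% (26.6% and 22.1%). Among all 7829 genes with a mean of 5 FPKM or more, 39.7% were higher with DOX and the median change was -5.82%. A rise of 42.9% or more, the same ratio as a fall of 30%, was reached by 5.68% of those genes and by PLAU, PLAUR and PLAT.

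Limma on log2(FPKM + 1), with Benjamini-Hochberg adjustment over 11301 genes, called all 4 genes higher. The log2 difference was 0.56 for PLAU (SE 0.089, adjusted p = 0.0118), 0.51 for PLAUR (SE 0.080, adjusted p = 0.0115), 0.57 for PLAT (SE 0.085, adjusted p = 0.0104) and 0.31 for SERPINE2 (SE 0.081, adjusted p = 0.0384). The same fit called 35.2% of all genes, 12.9% higher and 22.4% lower. It rests on 1 residual degree of freedom and takes the lone No DOX library to vary like the DOX libraries, and without the filter on low values none of the 4 genes passed (adjusted p = 0.0923 for PLAU, PLAUR and PLAT and 0.0992 for SERPINE2). After rescaling to the median gene, 1996 genes were called higher and 1915 lower, in place of 1456 and 2526, and the 4 genes were called higher in that setting too. Of the mesenchymal markers, 3 of 7 rose with DOX at 8p and 0 fell, and the sum of all 8 was 3751 FPKM with No DOX and 3957 and 4098 with DOX, whose part in the result was not tested.

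At 1p and 12q the changes with DOX were smaller or went down, with 1 library per condition. PLAU changed by -17.5% at 1p (361 to 297 FPKM) and by -1.98% at 12q (295 to 289). PLAUR changed by -18.5% at 1p and by -5.63% at 12q. PLAT changed by -4.86% at 1p and by -13.2% at 12q, from levels that differed more than 5-fold between the clones. SERPINE2 changed by -0.126% at 1p and by 17.0% at 12q. The shares of all genes that fell by 30% or more were 0.658% at 1p and 3.10% at 12q, and 0.164% and 0.484% rose by the same ratio, with none of the 4 genes among them, and 48.5% and 46.3% were higher with DOX by any amount. Limma over both sites called 0 of the 4 genes with DOX, 0 also at an unadjusted p under 0.05, with log2 differences of -0.15 for PLAU (adjusted p = 0.71), -0.19 for PLAUR (adjusted p = 0.70), -0.13 for PLAT (adjusted p = 0.72) and 0.11 for SERPINE2 (adjusted p = 0.78). That fit called 0.00877% of 11397 genes. XIST, the induced transgene, was not called in it either (log2 difference 3.00, adjusted p = 0.70). The lack of a call there cannot show that DOX left a gene unchanged. Without the NextSeq 12q library with DOX, only the 1p values above remain and no test can be made. The differences between sites in these changes were not tested. The 8p and the other libraries stand in tables that were normalized separately, and 1p and 12q had 1 library per condition.

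**Figure D2:**
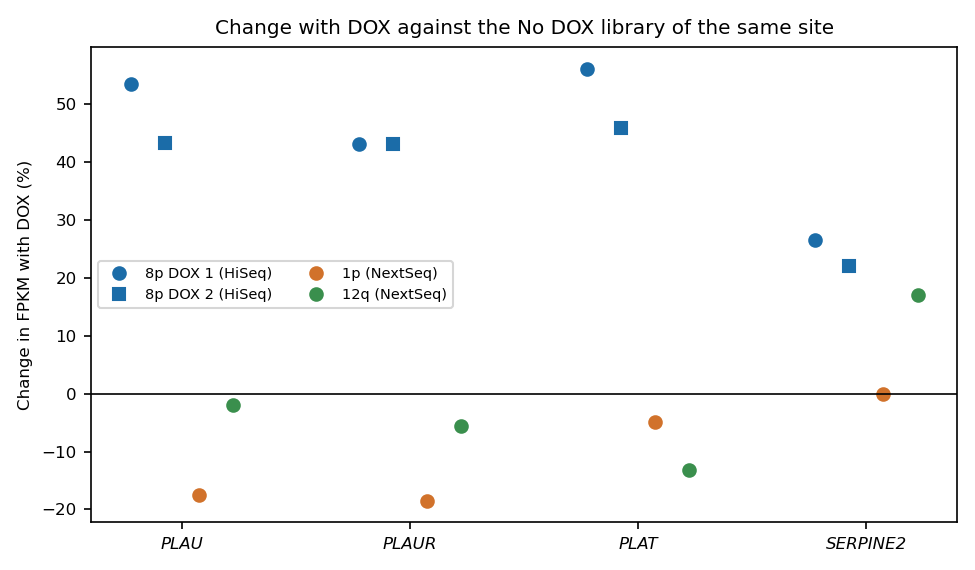
Change in FPKM with DOX (vertical axis, percent of the No DOX library of the same site) for PLAU, PLAUR, PLAT and SERPINE2, with 1 point each for the 8p DOX replicates, 1p and 12q. Both 8p points lie above 0 for every gene, from 22.1% to 56.1%, while at 1p the 4 genes lie between -18.5% and -0.126%.

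PLAT lies on chromosome 8 from 42151393 to 42184351 (hg18), on the short arm that carries the 8p transgene. It is 35.59 Mb from the midpoint of AGPAT5, near the centromeric end of the arm, and its rise was unlike most of that arm. Of the 95 genes of 8p with a mean of 5 FPKM or more, 20 were higher with DOX, and their median change was -19.74%. Of all 7829 genes with such a mean, 39.7% were higher and the median change was -5.82%. PLAT was 1 of 3 genes of the arm with a rise of 51.0% or more, beside the host gene AGPAT5 (92.8%) and PPAPDC1B (55.5%). Of the 29 genes more than 30 Mb from AGPAT5, 8 were higher with DOX and their median was -19.52%. Among the 95 genes, the 5 nearest on either side of PLAT, all within 3.2 Mb, ranged from -34.2% (TM2D2) to 48.4% (C8orf40). Of these 10, 7 were lower, 6 of them in both replicates, and 3 were higher, a share near the 39.7% of all genes. Genes with a mean under 5 FPKM were left out, so others may lie closer to PLAT. The nearest of the 10 on the telomeric side, the histone acetyltransferase gene KAT6A, changed by -24.3%. The nearest of them on the centromeric side, the NF-kappaB kinase gene IKBKB, changed by 4.18%. VDAC3, a mitochondrial channel gene 0.208 Mb from PLAT, changed by -33.8%. PLAT thus moved against KAT6A and VDAC3 but with IKBKB, POLB (14.0%) and C8orf40. These values carry no allelic information, so a fall on the chromosome with the transgene cannot be told apart from changes on the other copy.

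**Figure D3:**
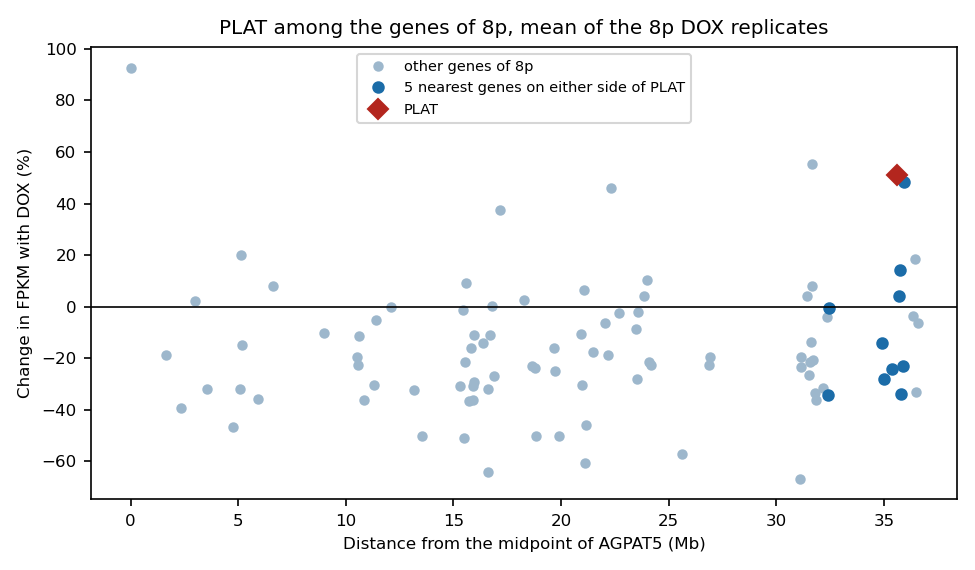
Change in FPKM with DOX at 8p (vertical axis, percent, mean of the 2 DOX replicates) against distance from the midpoint of AGPAT5 (horizontal axis, Mb). Shown are the 95 genes of 8p with a mean of 5 FPKM or more, 1 point per gene. PLAT is a diamond, and the 10 of these genes nearest to it, 5 on either side, are in dark blue. PLAT stands at a rise of 51.0%, where the median of the arm is -19.74%.

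The next comparison set the 8p DOX libraries against the 3 other HiSeq libraries with DOX. SERPINE2 was higher in 8p than in every one of them, 5.14-fold against 1p XIST, 8.47-fold against the vector clone and 2.12-fold against 12q XIST. PLAT was 5.73-fold higher than in the vector clone and 4.42-fold higher than in 12q XIST but 0.907 times the 1p XIST level. PLAUR was 1.22, 1.11 and 1.21 times, and PLAU 0.600, 1.44 and 0.778 times, the levels in 1p XIST, the vector clone and 12q XIST. At least 2-fold higher in 8p were 9.60% of genes against 1p XIST, 8.74% against the vector clone and 4.14% against 12q XIST.

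Against a spread pooled from those 3 clones and the 8p DOX replicates, limma called 0 of the 4 genes. Of them 1, SERPINE2, had an unadjusted p under 0.05. XIST was not called either (log2 difference 3.01, adjusted p = 0.30), with the empty vector clone among the 3. The log2 difference of SERPINE2 was 2.06 (SE 0.50, adjusted p = 0.093), that of PLAT 1.39 (SE 0.71, adjusted p = 0.28), that of PLAUR 0.23 (SE 0.14, adjusted p = 0.34) and that of PLAU -0.19 (SE 0.36, adjusted p = 0.77). The median difference of all genes was 0.19 in this fit, which called 1.41% of 11352 genes, 115 (1.01%) higher and 45 (0.396%) lower, and 101 and 119 after rescaling to the median gene, when the difference was 1.86 for SERPINE2, 1.19 for PLAT, 0.022 for PLAUR and -0.40 for PLAU. SERPINE2 passed without the 12q XIST library (log2 difference 2.56, adjusted p = 0.0337) and with the No DOX library added to the 8p side (1.96, adjusted p = 0.0461). The latter setting mixes DOX states and may count 1 clone of 8p more than once, so its call is not an independent check. In the other settings of the 12 alternatives SERPINE2 did not pass.

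Between 12q and 1p the data held a pair of libraries in the HiSeq table and 2 pairs in the NextSeq table. PLAT was lower in 12q in all 3, 4.87-fold (HiSeq, DOX), 5.48-fold (NextSeq, No DOX) and 6.01-fold (NextSeq, DOX). SERPINE2 was higher in 12q in all 3, 2.42-fold, 1.73-fold and 2.02-fold in the same order. PLAU in 12q was 0.771, 0.818 and 0.972 times its 1p level and PLAUR 1.01, 0.822 and 0.952 times. Of 6688 genes measured in all 3 pairs, 42 (0.628%) were at least 2-fold lower in 12q each time, PLAT among them, and 85 (1.27%) were at least 2-fold higher each time.

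In limma over the 4 NextSeq libraries with DOX as a term, the log2 difference of 12q against 1p was -2.39 for PLAT (SE 0.070, adjusted p = 0.00058) and 0.86 for SERPINE2 (SE 0.083, adjusted p = 0.0059). PLAU (-0.17, SE 0.080, adjusted p = 0.17) and PLAUR (-0.17, SE 0.075, adjusted p = 0.14) did not pass. This fit called 32.8% of 11397 genes, 17.9% higher and 15.0% lower, on 1 residual degree of freedom. With the No DOX libraries alone, which leaves out the 12q library with epithelial transcripts, the log2 difference was -2.34 for PLAT, 0.75 for SERPINE2, -0.29 for PLAU and -0.28 for PLAUR. Of the endothelial markers, CDH5 was high in 12q only, PECAM1 was lower in 12q than in 1p, and VWF was higher at 0.394 FPKM or less. Of the 7 mesenchymal markers tested, 5 were lower and 1 higher in 12q, where all 8 summed to 3343 and 3439 FPKM against 4783 and 5067 in 1p. Their part in these differences was not tested.

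A single library pair compared 1p XIST with the 1p empty vector clone, both with DOX. PLAT was 6.31-fold higher in the XIST clone (33.9 against 5.37 FPKM), PLAU 2.40-fold higher (238 against 99.2) and SERPINE2 1.65-fold higher (9.27 against 5.63), while PLAUR was 0.911 times the vector level. At least 2-fold higher in the XIST clone were 4.31% of 7145 genes. There is no replicate of either clone, and XIST and clone cannot be told apart in this pair. In the NextSeq table PLAT was at 51.0 FPKM in 1p with No DOX, where XIST was at 4.17 FPKM. The vector clone had no library there, and the part of XIST in the level of PLAT was not tested.

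The wider pathway was read from a list of 24 plasminogen receptors, partners of the urokinase receptor, other inhibitors and other activating proteases, all of them in both tables. Plasminogen itself (PLG) was listed at 0 in every library, and of the list 11 genes in the HiSeq and 10 in the NextSeq table reached a mean of 1 FPKM. With DOX at 8p, 6 of the 10 tested rose and 0 fell, with a median log2 difference of 0.52 against -0.060 for all genes and a background of 12.9% called higher. The list was chosen with earlier results of these data known, so its counts here and below are a description only. Its genes also share 1 No DOX library at 8p. LRP1, the endocytic receptor that clears urokinase bound to its inhibitors, went from 19.7 FPKM to 38.8 and 35.0 (log2 difference 0.87, SE 0.095, adjusted p = 0.0064). MRC2, a collagen receptor that associates with the urokinase receptor, went from 17.3 to 31.1 and 30.2 (0.79, adjusted p = 0.0062). VLDLR, a second receptor of that clearing family with a mean of 3.11 FPKM in this fit, rose by 0.52 (adjusted p = 0.0131). The plasminogen receptor PLGRKT, listed as C9orf46, rose by 0.56 (adjusted p = 0.0085). SERPINI1 (neuroserpin, an inhibitor of PLAT) and SRPX2, a ligand of the urokinase receptor, made up the 6, both, like VLDLR, with a mean under 5 FPKM. Without the filter on low values, LRP1, MRC2, VLDLR, PLGRKT and SERPINI1 did not pass at 8p (adjusted p = 0.0923 to 0.0944). SRPX2 was not followed in that setting.

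The most abundant genes of the list, the plasminogen-binding surface proteins ENO1, ANXA2 and S100A10, stood at 1230, 961 and 243 FPKM in 8p with No DOX and at 1141, 964 and 256 FPKM as the mean of the 8p DOX replicates, and did not pass. Between 12q and 1p, 5 of 10 genes of the list were lower in 12q and 0 higher, against 15.0% of all genes lower. These were S100A10 (-0.77, adjusted p = 0.0044), its partner ANXA2 (-0.57, adjusted p = 0.0066), VLDLR (-0.64, adjusted p = 0.0200), LRP1 (-0.61, adjusted p = 0.0315) and ENO1 (-0.26, adjusted p = 0.0301). LRP1, VLDLR and ENO1 lost the call without the filter on low values (adjusted p = 0.0953, 0.0711 and 0.146), and LRP1 and ENO1 also without the trend (0.0550 and 0.0744). From the No DOX libraries alone, with no test, the difference was -0.71 for S100A10, -0.60 for ANXA2, -0.79 for VLDLR, -0.25 for ENO1 and -0.37 for LRP1, whose value thus moved by more than 1.5 times. In the HiSeq pair with DOX, ANXA2 was nearly equal in 12q and 1p (537 and 574 FPKM, log2 ratio -0.096). The log2 ratio there was -0.34 for S100A10, -0.15 for ENO1, -0.62 for VLDLR and -1.62 for LRP1, with no test. These ratios were taken on FPKM with no 1 added, unlike the differences above. On that scale the NextSeq ratio with No DOX was -0.96 for VLDLR and -0.40 for LRP1. In the fit on all 4 libraries the median over the list was -0.21 against 0.016 for all genes. Beside the 3 other DOX clones the 8p libraries had 0 of 11 called by limma, 6 of them with an unadjusted p under 0.05, and a median of 0.54 against 0.19. For DOX over 1p and 12q limma called 0 of 10, 1 with an unadjusted p under 0.05, in the fit that did not call XIST either.

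Among the other genes named SERPIN that are reported here, 29 in the HiSeq and 31 in the NextSeq table, 7 and 8 reached a mean of 1 FPKM. At 8p, 1 of these 7 serpins rose and 2 fell, against 12.9% and 22.4% of all genes. SERPINF1 (pigment epithelium-derived factor), with a mean under 5 FPKM, was the 1 that rose, while SERPINB8, a furin inhibitor, went from 11.0 to 5.89 and 6.32 FPKM (-0.75, adjusted p = 0.0065) and SERPINB7 from 56.2 to 46.3 and 41.8 (-0.35, adjusted p = 0.044). None of the 3 passed without the filter on low values (adjusted p = 0.0923 for SERPINF1 and SERPINB8 and 0.146 for SERPINB7), nor did SERPINB7 after rescaling to the median gene (0.0665). Against the other DOX clones, SERPINB7 was the 1 serpin called, at 46.3 and 41.8 FPKM against 5.12 in 1p XIST, 4.95 in the vector clone and 9.91 in 12q (2.61, SE 0.29, adjusted p = 0.030). It was not called without either 8p DOX replicate (adjusted p = 0.341 and 0.262) or without 1p XIST (0.0810), nor without the filter on low values (0.0581). Between 12q and 1p, SERPINH1, the collagen chaperone (0.93, adjusted p = 0.0040), and SERPINB1, an inhibitor of neutrophil proteases (0.68, adjusted p = 0.0070), were higher in 12q with SERPINE2, while SERPINB8 (-0.68, adjusted p = 0.0081) and SERPINB6 (-0.31, adjusted p = 0.033) were lower. SERPINB6 lost its call without the filter on low values (adjusted p = 0.0704) and without the trend (0.0680). From the No DOX libraries alone the differences were 0.85 for SERPINH1, 0.69 for SERPINB1, -0.62 for SERPINB8 and -0.38 for SERPINB6, with no test. In the HiSeq pair with DOX the log2 ratios, on FPKM with no 1 added, were 0.995, 0.72, -0.29 and -0.20 in the same order.

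**Figure D4:**
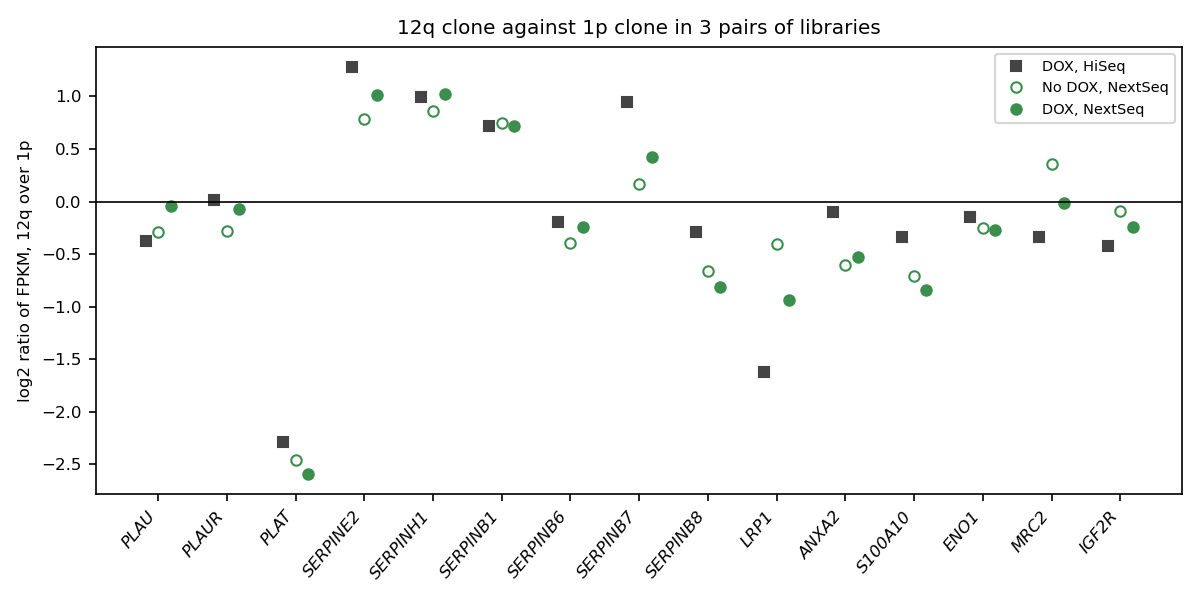
Log2 ratio of FPKM in 12q over 1p (vertical axis, 0 for equal levels) for 4 of the 5 genes and 11 related genes, 1 point for each of the 3 library pairs. PLAT lies between -2.28 and -2.59 and SERPINE2 between 0.79 and 1.28, while PLAU and PLAUR lie between -0.38 and 0.02.

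The profile of each transcribed gene over the 10 libraries, as log2(FPKM + 1) centred on the mean of its table, was set beside those of 462 genes that varied with an SD of at least 0.5. These correlations describe 10 libraries from few clones that share tables, so no p is given. The tables hold different clones, so a centred value depends on its table. Centred SERPINE2 in 12q with DOX was 0.028 on HiSeq and 0.54 on NextSeq. PLAT was most like MMP1, interstitial collagenase (r = 0.968), FN1, fibronectin (0.960), and NCEH1, a cholesterol ester hydrolase (0.957). MMP1 was at 56.7, 68.6 and 62.8 FPKM in the 8p libraries and 107 in 1p XIST but at 0.246 in the vector clone and 2.31 in 12q, and at 52.1 and 47.6 (1p) and 2.67 and 2.39 (12q) in the libraries on NextSeq. The clones that were low in PLAT were thus the ones low in MMP1.

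SERPINE2 was most like RRM2B, a ribonucleotide reductase subunit (0.990), MDM2, a ubiquitin ligase (0.989), and SLC38A2, an amino acid transporter (0.984). MDM2 was at 73.3, 103 and 99.9 FPKM in the 8p libraries, 54.1 in 12q, 24.5 in 1p XIST and 15.5 in the vector clone, the same order as SERPINE2. PLAU was most like INHBE, an inhibin beta subunit (0.944), DDIT4 (0.835) and VEGFA, vascular endothelial growth factor (0.768). The values for PLAUR were lower, and the second and the third in rank were 0.597 for SNORD12B and 0.595 for AGPAT5. SNORD12B, a small nucleolar RNA gene, was at 24.6 FPKM in 1p with No DOX and listed at 0 in the other 3 NextSeq libraries. The SD of PLAUR itself was 0.172, against 0.385 for PLAU, 0.959 for SERPINE2 and 1.14 for PLAT. Among themselves, PLAU and PLAUR had an r of 0.225, PLAT and PLAU 0.338, and PLAT and SERPINE2 0.145.

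**Figure D5:**
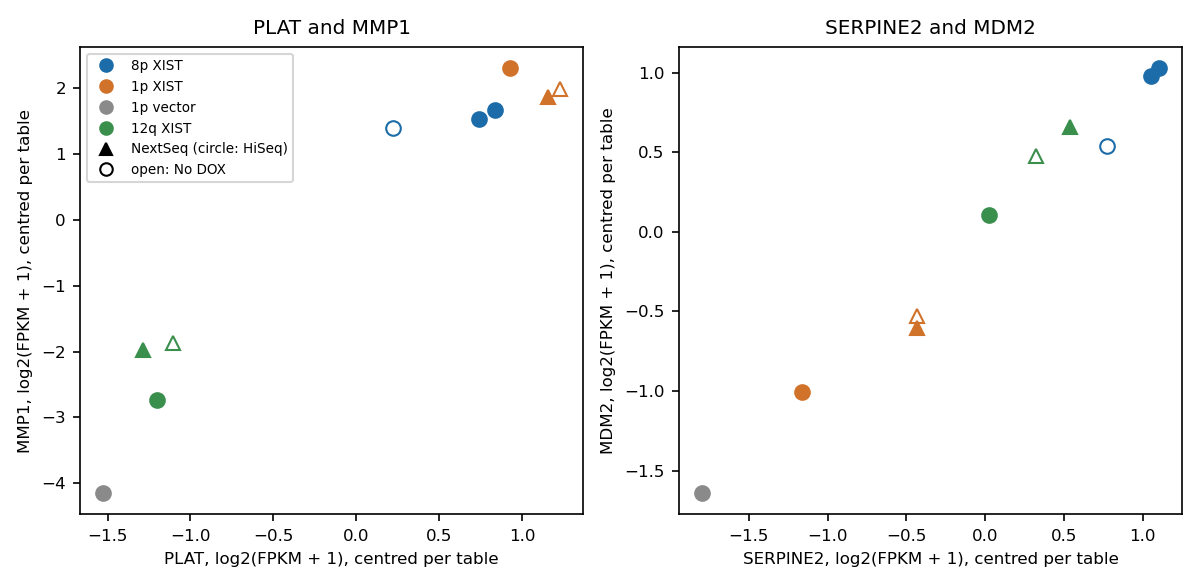
Levels of MMP1 against PLAT (left) and of MDM2 against SERPINE2 (right) in the 10 libraries, both axes as log2(FPKM + 1) centred on the mean of each table, with circles for HiSeq, triangles for NextSeq and open symbols for No DOX. For PLAT the 12q and vector libraries form a low group. For SERPINE2 the HiSeq libraries run from the vector clone through 1p and 12q to 8p, and the NextSeq ones from 1p to 12q. Circles and triangles are centred on different sets of clones.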

How the data were processed

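RNA-seq of 10 of the 16 samples was used, and the 6 ChIP samples were not analysed here. The authors aligned polyA, strand-specific reads to hg18 with TopHat (Bowtie) and deposited FPKM from Cufflinks in separate HiSeq and NextSeq tables, with versions and annotation not given in the sources used here. FPKM keep no read counts, so depth is unknown and the precision that depth gives could not be stated. Symbols listed more than once (735 and 878), symbols turned into dates (26 in each) and 2 NextSeq genes with no value were dropped. Groups came from the labels, and libraries were compared only within a table, except for likeness, which set profiles over both tables after centring each table on its mean. Limma 3.58.1 in R 4.3.3 (lmFit, eBayes with trend, Benjamini-Hochberg over all genes, adjusted p under 0.05) was run on log2(FPKM + 1) for genes with a mean of at least 1 FPKM, which understates changes of low genes, in 4 comparisons. Percent changes used no pseudocount and a mean of at least 5 FPKM. The fits were tested on simulated data. Named genes were the 5 genes, listed pathway and SERPIN genes with a mean of at least 5 FPKM that were called or among the 5 most abundant, and for likeness the 3 highest r. A few others were named after their values were seen, and certain genes are not reported here. The members and lists were chosen with earlier results of these data known. Alternatives were other pseudocounts (0.1 and 5), filters, scaling and libraries left out. Percent changes and levels came from Python 3.11.15 with pandas 2.3.3.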

Additional observations from a re-analysis of the deposited data

Results flagged for a closer look

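The sign of the change with DOX differed between sites for the transcribed genes, in some of them by a value near 0, and none of these differences was tested. The median gene changed by -0.304% at 1p and by -1.18% at 12q. PLAU, higher in both DOX replicates at 8p, changed by -17.5% at 1p and by -1.98% at 12q, the latter close to that median. PLAUR was likewise higher at 8p but changed by -18.5% at 1p and by -5.63% at 12q. PLAT changed by -4.86% at 1p and by -13.2% at 12q, against its rise at 8p. SERPINE2 was higher at 8p and at 12q (17.0%), and its change of -0.126% at 1p was closer to 0 than that of the median gene. The 12q values rest on the NextSeq library with DOX that held epithelial transcripts, and 8p was in the other table.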

How the results depend on the processing

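Among the alternatives tried for the main results, 198 left the direction and the side of the threshold as reported or the value within the spread, 36 moved a value beyond the spread or a count by more than 1.5 times, 4 lost a call, 2 gained one, and none reversed a called direction. No paired analysis was possible because no groups set against each other hold 2 replicate numbers in common. Leaving out an 8p DOX replicate leaves 1 library on each side of DOX at 8p, so only the values per replicate in the report were available. For 8p against the other DOX clones, SERPINE2 passed without the 12q library (2.56) and with all 3 8p libraries (1.96), which gave 1 gene called of the 4 in place of 0. The setting with all 3 8p libraries mixes DOX states and may count 1 clone more than once. All genes called numbered 160, and 275 with a pseudocount of 5, 95 with a mean of at least 5 FPKM, 587 with all 3 8p libraries, and 5 to 700 when a library was left out, with 5 and 11 without an 8p DOX replicate, 21 without 1p XIST, 254 without the vector clone and 700 without 12q. Leaving out a library gave 0 to 1 of the 4 genes called and 1.65 to 2.56 for SERPINE2. Without the filter on low values, DOX at 8p gave PLAU 0.56, PLAUR 0.51, PLAT 0.57 and SERPINE2 0.31, 0 genes called of 4 by limma (4 at an unadjusted p under 0.05) and 21 of all genes in place of 3982. The same setting called 1971 genes in place of 3742 for 12q against 1p. For 12q against 1p, the log2 difference with No DOX, with DOX and in the HiSeq table was -0.29, -0.041 and -0.37 for PLAU, -0.28, -0.070 and 0.015 for PLAUR and 0.75, 0.97 and 1.19 for SERPINE2, and -2.13 for PLAT in the HiSeq table. For DOX at 1p alone and 12q alone it was -0.28 and -0.029 for PLAU, -0.29 and -0.083 for PLAUR and -0.0017 and 0.22 for SERPINE2, and of all genes 0 were called without the filter (858 at an unadjusted p under 0.05) and 2 without the trend, in place of 1. Rescaled to the median gene, the rise at 8p was 56.6% for PLAU, 51.0% for PLAUR, 59.3% for PLAT and 31.2% for SERPINE2, and PLAT at 12q changed by -8.59%. The cause of these shifts was not tested. Depth is unknown, so the precision of SERPINB2 and other low genes could not be given.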
